A study of Homo sapiens with 16 samples.

Results

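Expression of 8 genes of secreted and surface serine proteases and of plasminogen activation was measured by bulk RNA-seq in the human colon fibroblast line Ccd18-Co. The genes were chosen by symbol from the 40663 gene symbols of the table, with earlier results of these data in view. They are PLAU, PLAT, PLAUR, HTRA1, HTRA3, PRSS35, PRSS23 and DPP4. PRSS35 was selected on its rise under belinostat against vehicle, so its values in that comparison, and in every comparison that shares libraries with it, are a description without a test. The other members were taken for their family.

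Cultures formed 4 groups of 4 libraries. In 3 of the groups the fibroblasts had first received 3 pulses of a cytokine mix, each pulse being 72 h with cytokines and 96 h of recovery. The mix held TNF, OSM and IL-17A (10 ng/ml of each) together with IL-1B (0.1 ng/ml). After 1 week without cytokines the pulsed cells were given DMSO (the vehicle group), 250 nM belinostat, an inhibitor of histone deacetylases, or 10 µM GSK-J4, an inhibitor of demethylases of histone H3 lysine 27. Exposure lasted 5 days at a dilution of 1 in 5000, and RNA was taken 2 weeks later. The study's paper states other concentrations of both compounds for its assays, and in places a lower one of IL-1B. The unstimulated group received no cytokines. Its titles name DMSO, whereas its columns carry the word none. All libraries came from 1 line used up to passage 20, and nothing in the labels says whether the 4 libraries of a group came from independent cultures, so p-values measure the spread between these libraries, which may be technical.

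Plasminogen is a circulating zymogen that urokinase (PLAU) and tissue plasminogen activator (PLAT) convert to plasmin, a protease of fibrin and of several matrix proteins. The urokinase receptor (PLAUR) holds urokinase at the cell surface, and the serpin protease nexin-1 (SERPINE2) inhibits the activators. HTRA1 and HTRA3 are secreted proteases that cleave matrix proteins, and DPP4 is a membrane-bound peptidase that trims chemokines and peptide hormones at their amino terminus. In the gut these enzymes take part in matrix turnover and wound repair by fibroblasts.

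A gene is called here when its adjusted p under DESeq2's Wald test was below 0.05 across all genes tested. The widest change among the members with a test was in PLAT, which was 1.98-fold lower under belinostat than in vehicle. HTRA3 (1.48-fold lower) and DPP4 (1.19-fold lower) fell with it. PRSS35, the gene picked for its rise, stood 4.51-fold above vehicle. In GSK-J4 against vehicle 2 of the 7 members tested were called, DPP4 higher (1.1% of all tested genes were called higher) and PRSS23 lower (0.818% were called lower), and edgeR called neither (adjusted p 0.078 and 0.12). PLAU and PLAUR were called in none of the 6 comparisons.

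The bases before the RefSeq transcription start are shown for 3 of the genes whose levels differed under belinostat, 1 that was higher (PRSS35) and 2 that were lower (HTRA3 and DPP4). Each run holds 250 bases from RefSeq's assembly GRCh38.p14, written 5′ to 3′ on the strand of the gene, and capitals mark GC boxes (GGGCGG on either strand, where neighbouring matches may overlap). The windows are chr6:83512284-83512533 on the plus strand for PRSS35, chr4:8269504-8269753 on the plus strand for HTRA3 and chr2:162074216-162074465 on the minus strand for DPP4.
PRSS35: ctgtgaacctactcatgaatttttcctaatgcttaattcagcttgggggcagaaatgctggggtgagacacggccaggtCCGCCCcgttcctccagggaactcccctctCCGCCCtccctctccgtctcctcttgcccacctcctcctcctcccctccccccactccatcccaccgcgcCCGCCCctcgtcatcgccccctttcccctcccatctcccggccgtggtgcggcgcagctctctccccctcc
HTRA3: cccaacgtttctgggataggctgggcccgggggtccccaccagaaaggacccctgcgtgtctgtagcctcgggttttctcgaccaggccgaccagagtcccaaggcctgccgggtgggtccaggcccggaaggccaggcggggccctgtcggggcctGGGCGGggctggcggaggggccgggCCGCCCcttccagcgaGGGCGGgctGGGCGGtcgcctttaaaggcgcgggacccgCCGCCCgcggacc
DPP4: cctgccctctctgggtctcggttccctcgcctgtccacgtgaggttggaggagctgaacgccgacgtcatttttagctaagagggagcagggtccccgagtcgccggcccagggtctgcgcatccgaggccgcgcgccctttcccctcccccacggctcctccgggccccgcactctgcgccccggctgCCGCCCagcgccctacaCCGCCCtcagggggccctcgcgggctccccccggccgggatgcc
The window of PRSS35 held 3 GC boxes, that of HTRA3 held 5 and that of DPP4 held 2. In the GENCODE annotation the DPP4 gene runs to 162074394, so part of its window, with its GC boxes, lies within the gene. The GC content was 65.2% for PRSS35, 74.8% for HTRA3 and 73.6% for DPP4, against a median of 58% over the 27305 windows of the table. Of the 7 members with a window, 5 held at least 1 GC box, as did 42.3% of all windows. PLAT had no window. HTRA1 and PRSS23, which were not called in belinostat against vehicle, held 5 GC boxes each. None of these 3 windows held TATAAA, which 11.1% of all windows held on either strand, or the AP-1 motif TGANTCA, which 6.6% held. The 1 AP-1 match among the members lay in the window of PLAUR. A match is a run of letters and not a site shown to be bound.

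The libraries gave 14.4 to 19.5 M estimated counts each. The fibroblast label was checked with 9 markers, all of which were detected in every group, with a sum between 431600 and 574821 normalized counts per library. Epithelial markers summed to 1.92 to 18.7, with KRT20 at 0 in all libraries, and endothelial markers to 20.5 to 47.1. Immune markers summed to 258 to 728, most of it CD68 and CD14, with CD3E at 0 in all libraries and PTPRC at 5.12 or less. CD14 was higher under belinostat than in unstimulated cells (log2 fold change 1.45, SE 0.35, DESeq2 adjusted p 0.00109, with overlapping libraries). In that comparison CD68 was lower without a call (-0.18, adjusted p 0.841), and PTPRC, CD3E and CD79A had no adjusted p. The fibroblast sum under GSK-J4 (538880 or more) lay above that of every vehicle library (536279 or less). Of its 9 markers COL1A2 and COL3A1 were called higher there (log2 fold change 0.22 each). PDGFRA (-0.15), PDGFRB (-0.10) and DCN (-0.01) were lower and the rest higher, none of them called. In belinostat against vehicle COL1A1 (-0.29, DESeq2 adjusted p 0.0089) and PDGFRA (-0.25, adjusted p 0.000816) were called lower. There LUM (0.11) and PDGFRB (0.02) were higher and the other fibroblast markers lower, none of them called. The sum of 5 smooth muscle markers also differed between groups. It ran from 18522 to 26297 under belinostat, from 27529 to 33783 in vehicle, from 25088 to 41385 in unstimulated cells and from 41852 to 43553 under GSK-J4, and the part of these marker differences in the results that follow was not tested. Belinostat replicate 17 correlated least with its group (mean Pearson's r 0.982 across genes, against 0.987 to 0.993 for the other 15 libraries), so some belinostat results are also given without it. The correlations between genes and the ratios were taken only with it. In bulk RNA, fewer cells of a kind and less RNA per cell cannot be told apart.

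Levels can be set side by side between genes only per length. In unstimulated cells, PLAT led with 169 ± 19.1 estimated counts per kilobase of transcript and per 1 M counts (mean ± SD, n = 4). HTRA1 followed at 111 ± 5.91, DPP4 at 89.5 ± 4.53, PLAU at 71.6 ± 8.34 and PRSS23 at 49.0 ± 2.99. The urokinase receptor PLAUR (8.55 ± 0.586), HTRA3 (4.24 ± 0.444) and PRSS35 (1.26 ± 0.237) were far lower, and each neighbour in this order of unstimulated levels differed by more than the sum of both SDs. In vehicle, by contrast, the ranges of mean ± SD of HTRA1 (93.7 ± 3.40), DPP4 (90.5 ± 3.38) and PLAU (88.6 ± 14.9) overlapped each other. Under belinostat PLAT came down to 110 ± 17.2, a range of mean ± SD that overlapped those of HTRA1 (103 ± 3.98) and PLAU (90.2 ± 17.1). The range of PRSS35 (4.41 ± 0.866) overlapped that of HTRA3 (3.46 ± 0.285). Plasminogen itself (PLG) was nearly undetected, with group means of 5.66 to 8.03 normalized counts.

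**Figure D1:**
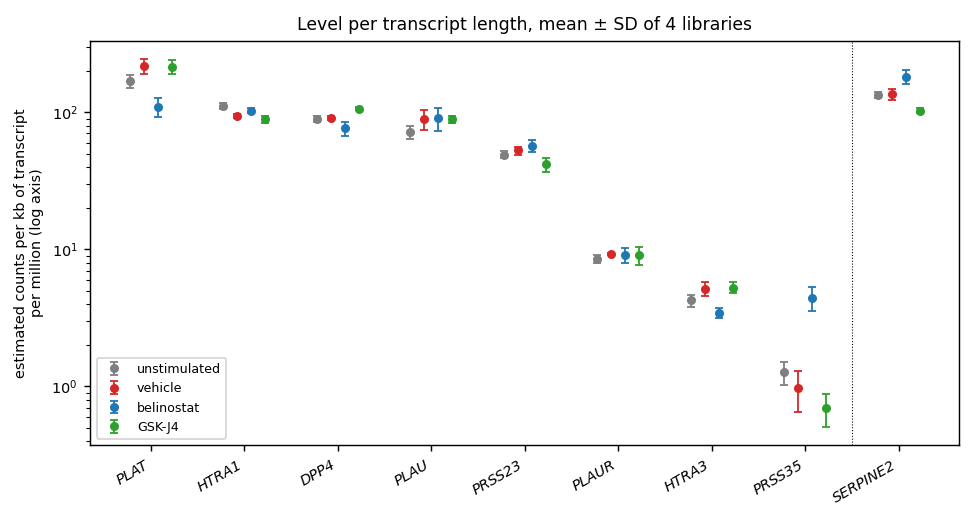
Levels of the 8 genes and of the inhibitor gene SERPINE2 in estimated counts per kilobase of transcript and per 1 M counts, on a log axis. Points are means of 4 libraries and bars are SDs. PLAT lies at 169 to 218 in the 3 groups without belinostat and at 110 under belinostat, and PRSS35 is the lowest member in those 3 groups.

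The plasminogen activator PLAT (ENSG00000104368.19) lies on chromosome 8 from 42174718 to 42207709 on the minus strand of GRCh38. Its normalized counts, which are estimated counts divided by DESeq2's size factors, were 9697, 10172, 7808 and 8579 in unstimulated cells. In vehicle they were 13068, 10322, 10625 and 12468. Under belinostat they were 5454, 5911, 7139 and 4959. All belinostat libraries were lower than every library of the other groups. Under GSK-J4 they were 10678, 13647, 10731 and 11579.9, within the range of vehicle except for the highest library. All vehicle and GSK-J4 libraries were above all unstimulated libraries.

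PLAT fell by 0.99 on the log2 scale from vehicle to belinostat (SE 0.12, DESeq2 adjusted p 1.85e-14). It was also lower under belinostat than in unstimulated cells (log2 fold change -0.63, SE 0.12, adjusted p 5.37e-06) and than under GSK-J4 (-0.99, SE 0.12, adjusted p 4.57e-15). These 3 comparisons use the same belinostat libraries. The fall against vehicle was called in all 13 alternative fits, with an adjusted p from 2.25e-19 to 7.64e-05, and stood at -0.95 without belinostat replicate 17. Vehicle against unstimulated gave a log2 fold change of 0.36 (SE 0.12, adjusted p 0.096), a difference that was not called although the groups did not overlap. With only these 2 groups in the fit it was called (adjusted p 0.0228). GSK-J4 against unstimulated gave 0.36 (SE 0.12, adjusted p 0.0376). That call was lost under edgeR (adjusted p 0.0852) and without unstimulated replicate 3 (0.148) or 4 (0.138) or GSK-J4 replicate 22 (0.218) or 24 (0.0791). GSK-J4 against vehicle differed by 0.00 (SE 0.12).

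PLAU, the urokinase gene (ENSG00000122861.16, chromosome 10, 73909177 to 73917496, plus strand), did not share the fall of PLAT under belinostat. Its normalized counts were 3291, 3153, 2463 and 2878 in unstimulated cells. In vehicle they were 3606, 3112, 3363 and 4398. Under belinostat they were 4725, 3332, 3458 and 3264, with replicate 17 far above its group. Under GSK-J4 they were 3558, 4009.6, 3569 and 3537. Only the GSK-J4 and unstimulated libraries did not overlap. The log2 fold change was 0.03 (SE 0.12, adjusted p 0.958) for belinostat and 0.02 (SE 0.12, adjusted p 0.987) for GSK-J4 against vehicle. Against unstimulated cells it was 0.30 in vehicle (SE 0.12, adjusted p 0.330), 0.33 under belinostat (SE 0.12, adjusted p 0.0726) and 0.32 under GSK-J4 (SE 0.12, adjusted p 0.130). Belinostat against unstimulated was called without unstimulated replicate 1 (adjusted p 0.047), and GSK-J4 against unstimulated was called when only those groups were in the fit (adjusted p 0.00956).

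PLAUR, the urokinase receptor (ENSG00000011422.12, chromosome 19, 43646095 to 43670547, minus strand), had the narrowest range of fold changes over the 6 comparisons. It stood at 224.9, 189, 199 and 208 normalized counts in unstimulated cells and at 224, 223, 219 and 220.4 in vehicle. Belinostat libraries held 189, 198, 233 and 243, and GSK-J4 libraries held 217, 267, 214 and 181. All groups overlapped each other. Its log2 fold changes in the 6 comparisons ran from -0.04 to 0.11, each with an SE of 0.12, and no alternative called any of them.

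**Figure D2:**
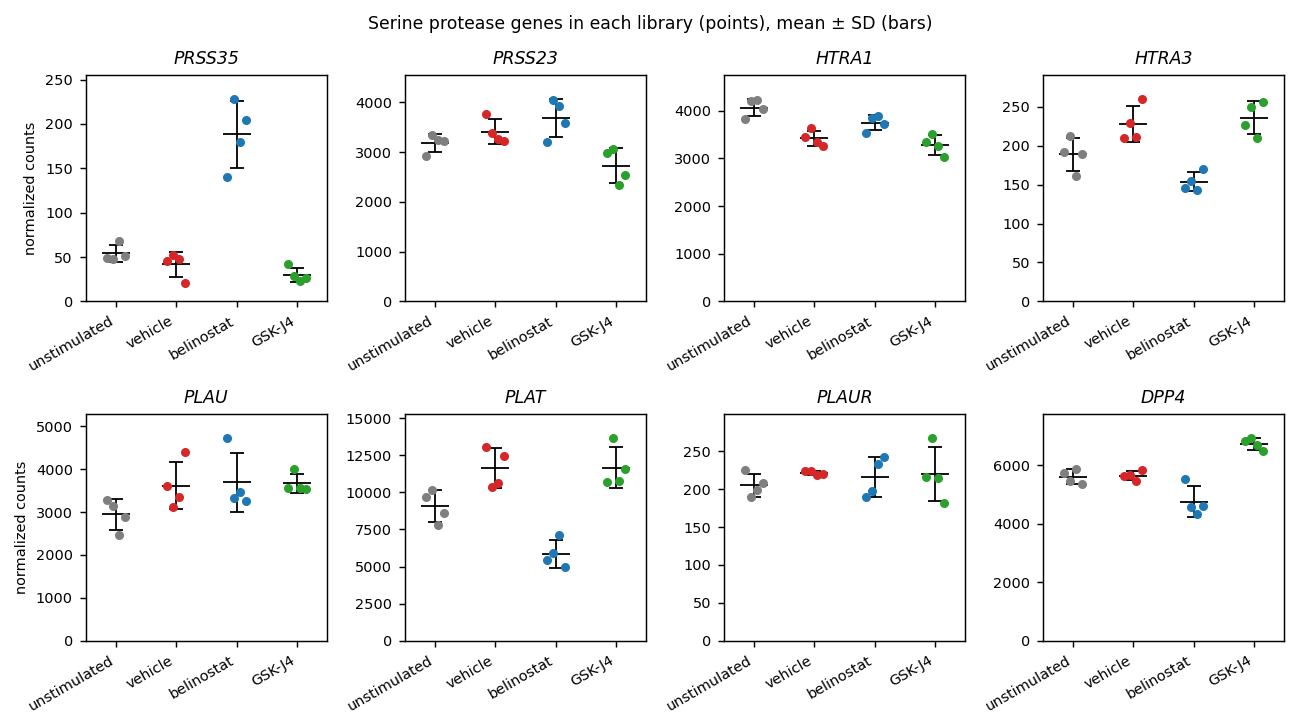
Normalized counts of each gene in each of the 16 libraries (points) by group, with the mean and SD of 4 libraries (bars). Each vertical axis starts at 0 and has its own scale. The 4 belinostat points are the lowest for PLAT (4959 to 7139) and the highest for PRSS35 (140.3 to 228).

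The HtrA genes HTRA1 and HTRA3 were called in opposite directions only in belinostat against GSK-J4. HTRA1 (ENSG00000166033.13, chromosome 10, 122458551 to 122514907, plus strand) stood at 3824, 4194, 4220.3 and 4027 normalized counts in unstimulated cells. In vehicle it stood at 3450.3, 3629, 3339 and 3264. Every vehicle library was below every unstimulated library. Belinostat libraries held 3538, 3854, 3885 and 3718, and GSK-J4 libraries held 3336, 3520.2, 3268 and 3022. All belinostat libraries lay above all GSK-J4 libraries. HTRA1 fell by 0.25 on the log2 scale from unstimulated cells to vehicle (SE 0.05, DESeq2 adjusted p 0.000815), a call kept in all 13 alternatives. GSK-J4 was below unstimulated too (-0.31, SE 0.05, adjusted p 2.46e-06), likewise in every alternative. Belinostat against vehicle gave 0.13 (SE 0.05, adjusted p 0.158), belinostat against unstimulated -0.12 (SE 0.05, adjusted p 0.173) and GSK-J4 against vehicle -0.06 (SE 0.05, adjusted p 0.835). Without belinostat replicate 17, belinostat against vehicle was 0.16 (adjusted p 0.0534). Belinostat was above GSK-J4 by 0.19 (SE 0.05, adjusted p 0.0074), a call lost without GSK-J4 replicate 24 (adjusted p 0.0527).

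HTRA3 (ENSG00000170801.10, chromosome 4, 8269754 to 8307098, plus strand), whose upstream bases are given above, is a low-level gene of the same family. It had 192, 212, 162 and 189 normalized counts in unstimulated cells and 210.3, 229, 211 and 260.0 in vehicle. It had 145, 155, 143 and 170.3 under belinostat and 227, 249.8, 210.3 and 256 under GSK-J4. Every belinostat library was below every vehicle and GSK-J4 library, whereas belinostat and unstimulated libraries overlapped. Belinostat against vehicle gave -0.57 on the log2 scale (SE 0.12, adjusted p 8.18e-05), and against GSK-J4 the difference was -0.62 (SE 0.12, adjusted p 5.59e-06). Both were called in all alternatives, and without belinostat replicate 17 they were -0.54 and -0.59. Against unstimulated cells HTRA3 was at 0.27 in vehicle (adjusted p 0.329), -0.30 under belinostat (adjusted p 0.0965) and 0.32 under GSK-J4 (adjusted p 0.0715). The belinostat difference was called without unstimulated replicate 3 (adjusted p 0.029), and the GSK-J4 difference without unstimulated replicate 2 (0.0432) or GSK-J4 replicate 23 (0.0475).

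PRSS35 and PRSS23 are close relatives, secreted proteins of the trypsin-like fold. PRSS35 is predicted to lack the catalytic serine and to be inactive. PRSS35 (ENSG00000146250.7, chromosome 6, 83512534 to 83525704, plus strand) had 49.2, 48.1, 68.4 and 50.8 normalized counts in unstimulated cells and 45.7, 52.7, 47.5 and 21.2 in vehicle. It had 140.3, 228, 180.2 and 205 under belinostat and 41.7, 28.7, 23.4 and 26.2 under GSK-J4. The lowest belinostat library was above the highest library of any other group. The log2 fold change was 2.17 (SE 0.24) against vehicle, 1.79 (SE 0.24) against unstimulated and 2.65 (SE 0.25) against GSK-J4. Without belinostat replicate 17 these were 2.29, 1.91 and 2.77. Vehicle replicate 16, at 21.2, was the lowest library of its group. Leaving out any 1 library gave 1.95 to 2.30 for belinostat against vehicle and -0.51 to -0.16 for vehicle against unstimulated. Vehicle against unstimulated was -0.38 (SE 0.25) and GSK-J4 against vehicle -0.48 (SE 0.27), both with overlapping libraries.

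GSK-J4 against unstimulated shares no library with the comparison that chose PRSS35, and there it was tested. The log2 fold change of PRSS35 was -0.85 with an SE of 0.27 (DESeq2 adjusted p 0.0288), with no overlap. The call was lost under edgeR (adjusted p 0.0645), without unstimulated replicate 3 (0.135) or 4 (0.0572), and without GSK-J4 replicate 22 (0.0854), 23 (0.124) or 24 (0.095).

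PRSS23 (ENSG00000150687.12, chromosome 11, 86791059 to 86952910, plus strand) was far higher than PRSS35 per length, and its changes were small. It had 2932, 3343, 3249 and 3235 normalized counts in unstimulated cells and 3776, 3378, 3266 and 3227 in vehicle. It had 3213, 4053, 3932 and 3578 under belinostat, and 2984, 3065, 2332 and 2546 under GSK-J4. All GSK-J4 libraries were below all vehicle and all belinostat libraries. PRSS23 was higher under belinostat than under GSK-J4 by 0.44 (SE 0.09, adjusted p 5.75e-05), in every alternative. Against vehicle it was lower under GSK-J4 (-0.32, SE 0.09, adjusted p 0.0306). That call was lost under edgeR (adjusted p 0.12), without vehicle replicate 13 (0.202), 14 (0.0942) or 15 (0.0683) and without GSK-J4 replicate 23 (0.213) or 24 (0.161). Belinostat against vehicle was 0.11 (SE 0.09, adjusted p 0.636) and vehicle against unstimulated 0.10 (SE 0.09, adjusted p 0.907). Belinostat against unstimulated, at 0.21 (SE 0.09, adjusted p 0.134), was called only without belinostat replicate 17 (0.27, adjusted p 0.0254), and GSK-J4 against unstimulated was -0.22 (SE 0.09, adjusted p 0.161).

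DPP4 (ENSG00000197635.11, chromosome 2, 161992245 to 162074394, minus strand) was the member tested that was called in opposite directions under the compounds against vehicle. Its normalized counts were 5736, 5459, 5885 and 5359 in unstimulated cells and 5629.9, 5674, 5443 and 5821 in vehicle. They were 5527, 4558, 4341 and 4595 under belinostat and 6832, 6924, 6673 and 6479 under GSK-J4. Every GSK-J4 library was above every other library. Of the belinostat libraries, replicate 17 alone reached the range of vehicle and of unstimulated cells.

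DPP4 fell under belinostat by 0.25 on the log2 scale against vehicle (SE 0.06, DESeq2 adjusted p 0.00359) and by 0.24 against unstimulated cells (SE 0.06, adjusted p 0.00368). Without belinostat replicate 17 it fell by 0.33 and 0.32. The call against vehicle was kept in all alternatives, whereas the call against unstimulated was lost when only those groups were in the fit (adjusted p 0.0682). GSK-J4 was above vehicle by 0.25 (SE 0.06, adjusted p 0.00738), which edgeR did not call (adjusted p 0.078) and which was also lost without vehicle replicate 15 (0.0674) or GSK-J4 replicate 22 (0.0669). It was above unstimulated by 0.26 (SE 0.06, adjusted p 0.00166), in all alternatives. The direct difference of belinostat from GSK-J4 was -0.50 (SE 0.06, adjusted p 5.24e-13), also in all alternatives. Vehicle and unstimulated differed by 0.01 (SE 0.06), which was not called.

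**Figure D3:**
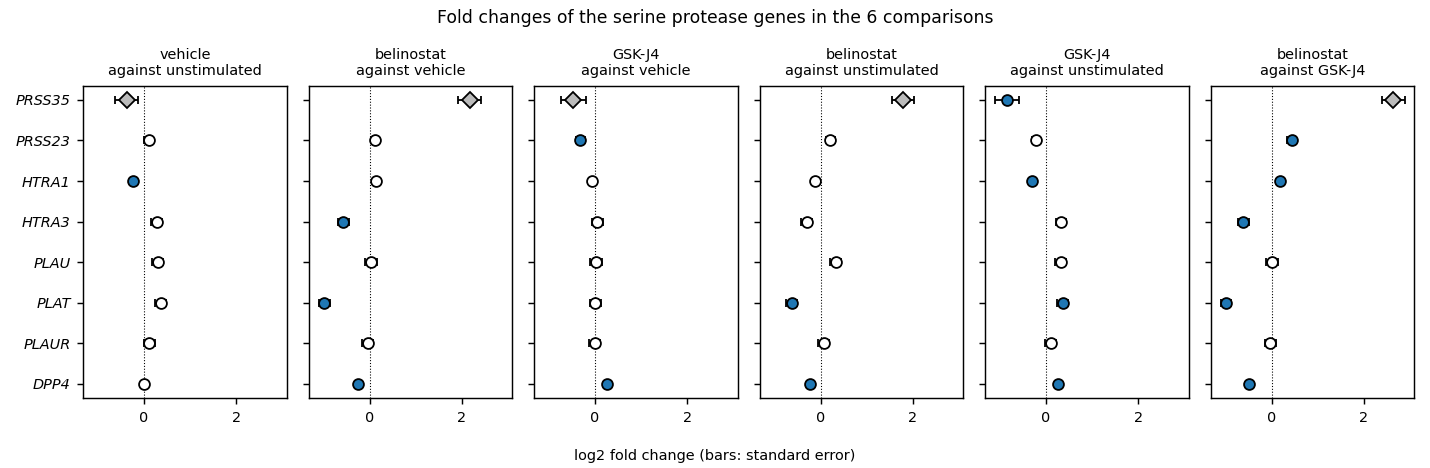
Log2 fold change of each gene (rows) in the 6 comparisons (panels), with standard errors as bars. Filled blue circles were called by DESeq2 at an adjusted p under 0.05, open circles were not, and grey diamonds mark PRSS35 where no test is given. PLAT, HTRA3 and DPP4 lie left of 0 for belinostat against vehicle at -0.99, -0.57 and -0.25.

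The counts of called members were read beside those of all genes tested, though the members were chosen with results in view. In vehicle against unstimulated, 0 of 7 members were higher and 1 was lower, where 1.1% and 0.634% of all tested genes were called in those directions. In belinostat against vehicle, 0 of 7 were higher (background 3.12%) and 3 were lower (background 3.13%). In GSK-J4 against vehicle, 1 of 7 was higher (background 1.1%) and 1 was lower (background 0.818%). In belinostat against unstimulated, 0 of 7 were higher (background 5.51%) and 2 were lower (background 4.77%). In GSK-J4 against unstimulated, with PRSS35 tested too, 2 of 8 were higher (background 3.18%) and 2 were lower (background 2.37%). In belinostat against GSK-J4, 2 of 7 were higher (background 6.18%) and 3 were lower (background 6.01%). The comparisons share libraries and are not independent of each other. The median log2 fold change of the members tested for belinostat against vehicle was -0.04, beside 0.00 over all tested genes.

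Of 16 other genes of the plasminogen system, SERPINE2, the gene of protease nexin-1, was called in 5 of the 6 comparisons. It had 4891, 5469, 5364 and 5172 normalized counts in unstimulated cells and 4594, 5505, 5535 and 5337 in vehicle. It had 7938, 7033, 6027 and 7348 under belinostat and 4263, 3924, 4008 and 3964 under GSK-J4. Belinostat libraries were all above, and GSK-J4 libraries all below, those of every other group. SERPINE2 rose by 0.43 under belinostat against vehicle (SE 0.08, DESeq2 adjusted p 2.49e-06) and fell by 0.38 under GSK-J4 (SE 0.08, adjusted p 0.000375). Both calls held in all alternatives, and without belinostat replicate 17 the rise was 0.38. Belinostat against GSK-J4 was 0.81 (SE 0.08, adjusted p 1.43e-22), and against unstimulated cells the values were 0.44 for belinostat (adjusted p 1.1e-06) and -0.37 for GSK-J4 (adjusted p 0.000141).

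With all libraries, SERPINE2 alone of this list was called in belinostat against vehicle (1 of 9 tested, higher, background 3.12%), in GSK-J4 against vehicle (1 of 9, lower, background 0.818%) and in belinostat against unstimulated (1 of 9, higher, background 5.51%). None of 12 was called in vehicle against unstimulated (background 1.1% higher and 0.634% lower). In GSK-J4 against unstimulated 1 of 13 was higher (MRC2, background 3.18%) and 1 was lower (SERPINE2, background 2.37%). In belinostat against GSK-J4 1 of 12 was higher (SERPINE2, background 6.18%) and 2 were lower (MRC2 and ENO1, background 6.01%). Without belinostat replicate 17 more of the list was called, but the share of all genes called was not counted for that fit. Whether the gain is particular to this list was not tested. In belinostat against vehicle SERPINE2 and VTN were then higher and MRC2 and ENO1 lower. In belinostat against unstimulated SERPINE2, SERPINI1 and VTN were higher and ENO1 lower. In belinostat against GSK-J4 SERPINE2 and VTN were higher and MRC2 and ENO1 lower. Median log2 fold changes of this list were -0.03 for belinostat and 0.05 for GSK-J4 against vehicle, beside 0.00 over all genes tested in each. MRC2, a collagen-uptake receptor that associates with the urokinase receptor, was higher under GSK-J4 than in unstimulated cells (0.19, SE 0.05, adjusted p 0.00283). It was lower under belinostat than under GSK-J4 (-0.16, SE 0.05, adjusted p 0.0126), not called by edgeR (adjusted p 0.0637), in the fit of only those groups (0.079) and without belinostat replicate 18 (0.0669) or 19 (0.0696) or GSK-J4 replicate 22 (0.0823). ENO1, a glycolytic enzyme that also binds plasminogen at the cell surface, was lower under belinostat than under GSK-J4 (-0.20, SE 0.06, adjusted p 0.0196). It was not called by edgeR (0.056), in the fit of only those groups (0.0523) or without belinostat replicate 18 (0.103) or 20 (0.106) or GSK-J4 replicate 21 (0.0688), 22 (0.0635) or 23 (0.0841).

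Of 19 other secreted or surface serine proteases, 14 were tested in belinostat against vehicle, and 2 were lower (background 3.13%). These were FURIN, a proprotein convertase (-0.26, SE 0.05, adjusted p 3.35e-06), and C1S, a complement protease (-0.24, SE 0.04, adjusted p 2.42e-06). GSK-J4 against vehicle called 0 of 14 (background 1.1% higher and 0.818% lower). Vehicle against unstimulated called 0 of 16 (background 1.1% higher and 0.634% lower). In belinostat against unstimulated 3 of 14 were lower (C1S, CFD and FURIN, background 4.77%), and in belinostat against GSK-J4 3 of 14 (C1S, FURIN and PCSK5, background 6.01%). In GSK-J4 against unstimulated 1 of 16 was higher (FURIN, background 3.18%) and 1 was lower (CFD, background 2.37%). Without belinostat replicate 17 the same genes were called in the 3 belinostat comparisons, with PRSS12 and PCSK6 also higher against vehicle and PRSS12 against unstimulated. No share of all genes called was counted for that fit. The medians of this list were 0.06 for belinostat and 0.08 for GSK-J4 against vehicle. C1S was also lower under belinostat than in unstimulated cells (-0.28, adjusted p 9e-09) and than under GSK-J4 (-0.26, adjusted p 8.03e-08). FURIN was lower under belinostat in both of these too (-0.19 with adjusted p 0.00244, and -0.35 with adjusted p 1.86e-11). All belinostat calls of FURIN and C1S held in all alternatives.

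FURIN was higher under GSK-J4 than in unstimulated cells (0.17, SE 0.05, adjusted p 0.0122), not called by edgeR (0.0524) or without unstimulated replicate 3 (0.0606) or GSK-J4 replicate 22 (0.085) or 23 (0.0601). CFD, the complement protease factor D, was lower under belinostat than in unstimulated cells (-0.69, SE 0.14, adjusted p 2.79e-05), in all alternatives. Its fall under GSK-J4 against unstimulated (-0.42, SE 0.14, adjusted p 0.0415) was lost in 8 of 13 alternatives, edgeR (0.0688) and the fits without any 1 of the GSK-J4 libraries (0.0868 to 0.109) or without unstimulated replicate 1 (0.198), 2 (0.108) or 4 (0.0604). PCSK5, another proprotein convertase, was lower under belinostat than under GSK-J4 (-1.05, SE 0.22, adjusted p 5.91e-05). FAP, the closest relative of DPP4 and a surface marker of activated fibroblasts, was called in none of the 6 comparisons. Its log2 fold change was -0.30 (SE 0.24) for belinostat and 0.15 (SE 0.24) for GSK-J4 against vehicle.

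Among the 4 protease-activated receptors, which plasmin, thrombin and trypsin-like enzymes cleave, F2RL2 alone was called with all libraries, lower in the 3 belinostat comparisons and higher in GSK-J4 against unstimulated (1 of 4 in each, background 3.13%, 4.77%, 6.01% and 3.18%). Without belinostat replicate 17, F2R, another thrombin receptor, was also called lower in each belinostat comparison. The backgrounds above are those of the fit with all libraries, and none was counted for the fit without replicate 17. F2RL2, a thrombin receptor, had 337, 295, 335 and 359 normalized counts in vehicle and 276, 178, 149 and 149.5 under belinostat. All belinostat libraries were lower. Its log2 fold change was -0.81 against vehicle (SE 0.18, adjusted p 0.00037) and -1.17 against GSK-J4 (SE 0.18, adjusted p 8.62e-09), both called in all alternatives, and without belinostat replicate 17 these were -1.06 and -1.42. Belinostat against unstimulated was -0.60 (SE 0.18, adjusted p 0.0145), a call lost in the fit of only those groups (0.0923) and without unstimulated replicate 2 (0.116) or belinostat replicate 18 (0.0535), 19 (0.0787) or 20 (0.086). GSK-J4 against unstimulated was 0.56 (SE 0.18, adjusted p 0.0321), not called by edgeR (0.0668), without any 1 of the GSK-J4 libraries (0.052 to 0.161) and without unstimulated replicate 1 (0.0526), 3 (0.055) or 4 (0.163).

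**Figure D4:**
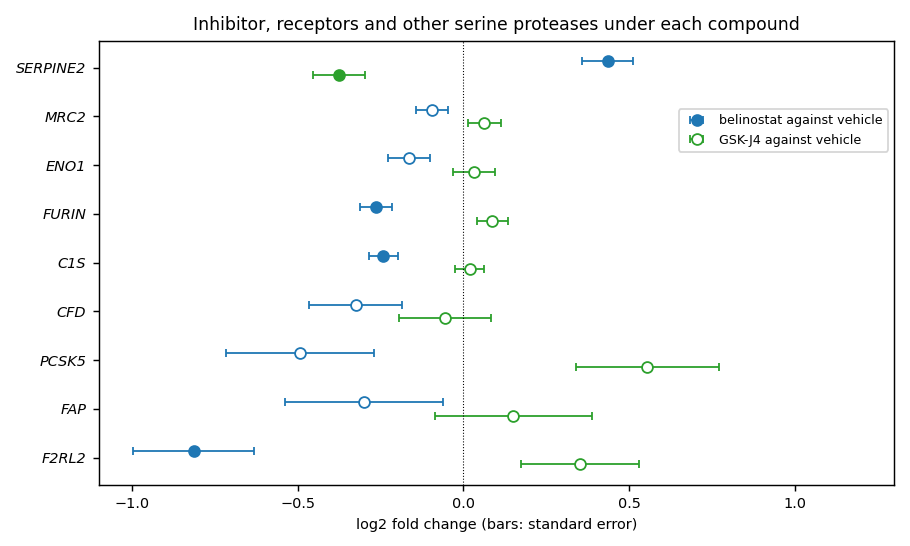
Log2 fold changes of an inhibitor, receptors and other serine proteases for belinostat (blue) and GSK-J4 (green) against vehicle, with standard errors as bars. Filled points were called by DESeq2 at an adjusted p under 0.05. SERPINE2 lies at 0.43 under belinostat and at -0.38 under GSK-J4, and F2RL2 lies at -0.81 under belinostat.

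The genes whose levels ran most like each member over the 16 libraries were found among 11741 genes with a mean of at least 50 normalized counts, by Pearson's r of log2(normalized count + 1). The libraries fall into the 4 groups, and r is also given with the group means removed. PRSS35 was selected on its rise under belinostat and passed the floor of 50 only through its belinostat libraries. Its r over the 16 libraries, also with PLAT and HTRA3, rests on the values that chose it and is a description only. PRSS35 was most like BMPR2 (r 0.97, and 0.82 with the group means removed) and ZC3H7B (0.97 and 0.72), and PLAT most like KPNA2 (0.96 and 0.70) and APCDD1 (0.96 and 0.64). HTRA1 was most like SH3BGRL2 (0.94 and 0.70) and EFEMP1 (0.93 and 0.79), HTRA3 most like ACP3 (0.94 and 0.64) and SRPX2 (0.92 and 0.52), and DPP4 most like TGFBR3 (0.94 and 0.69) and NPAS2 (0.94 and 0.94). PRSS23 ran with IRF1-AS1 (0.91 and 0.82) and DAP (0.90 and 0.75), and PLAU with QPRT (0.89 and 0.90) and NAMPT (0.88 and 0.86). PLAUR, called in no comparison, reached 0.77 with SDSL (0.81 with the group means removed) and 0.74 with SPAST (0.81). Among the members themselves, PLAT and HTRA3 had r 0.87, and PRSS35 had r -0.91 with PLAT and -0.88 with HTRA3. With the group means removed these became 0.26, -0.34 and -0.40.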

How the data were processed

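RNA from 16 Ccd18-Co libraries was quantified by the authors with kallisto, who deposited estimated counts for each gene symbol. The submitters' processing notes name kallisto 0.48.0, FastQC 0.11.9, MultiQC 1.14 and hg38. How transcripts were summed to symbols is not given in the sources used here. Kallisto divides reads among transcripts that share them. PLAT and PRSS23 had decimals in 16 of 16 values and PLAUR in 15 of 16, and the error of that division is not part of the standard errors. No column was left unused.

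The estimated counts were rounded and fitted with DESeq2 1.42.0 in R 4.3.3, with all 16 libraries in 1 fit, group as its factor, size factors by median of ratios and default independent filtering. Adjusted p is Benjamini-Hochberg over all genes tested, two-sided. Fold changes were not shrunken. The 13 alternatives per comparison were edgeR 4.0.16 (quasi-likelihood, TMM), TMM or library totals as size factors, a filter of 10 counts in at least 4 libraries, a fit restricted to the groups compared, and each of 8 libraries left out. Levels per length used the length of the MANE Select transcript in the GENCODE annotation of GRCh38, which also gave gene coordinates. Promoter windows are from RefSeq, and 7 of 8 members matched, all but PLAT. The table's total per library sets the precision, and no molecular identifiers are described in the sources used here.

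The members and gene lists were chosen with earlier results of these data known. All members are named. Of each pathway list, at most the 3 called genes with the lowest adjusted p in each comparison are named, together with FAP in every comparison, and for each member the 2 genes most correlated with it. CD14, the other single cell type markers and the genes called without belinostat replicate 17 were named after their values were seen. A gene of the plasminogen list is not reported here and was left out of its counts.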

Additional observations from a re-analysis of the deposited data

Results flagged for a closer look

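In each of 32 sets of 4 libraries (8 genes in 4 groups), the highest and lowest library were set against the rest by Dixon's criterion at the 95% level, which chance exceeds in about 1 in 20 sets. Libraries exceeded it in 3 sets, each time as the highest. PRSS35 stood at 68.4 normalized counts in unstimulated replicate 3, where the others held 48.1 to 50.8. PLAU stood at 4725 in belinostat replicate 17, where the others held 3264 to 3458. PLAU also stood at 4009.6 in GSK-J4 replicate 22, where the others held 3537 to 3569.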

How the results depend on the processing

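Of the 17 calls of members, 11 held in all alternatives, and of 26 tested differences that were not called, 6 were called in at least 1 alternative. The number of members called changed in at least 1 alternative in 5 of the 6 comparisons, the exception being belinostat against vehicle. Under edgeR it went from 2 to 0 for GSK-J4 against vehicle and from 4 to 2 for GSK-J4 against unstimulated. In the fit of only the groups compared it went from 1 to 2 for vehicle against unstimulated, from 2 to 1 for belinostat against unstimulated and from 4 to 5 for GSK-J4 against unstimulated. Leaving out 1 library gave 1 for vehicle against unstimulated, 3 for belinostat against vehicle, 0 to 2 for GSK-J4 against vehicle, 2 to 3 for belinostat against unstimulated, 2 to 5 for GSK-J4 against unstimulated and 4 to 5 for belinostat against GSK-J4. Over the 6 comparisons it gave 6 to 16 calls for the plasminogen system list (8 with all libraries), 8 to 13 for the other serine proteases (10 with all libraries) and 3 to 8 for the protease-activated receptors (4 with all libraries). The values of 16 and of 8 for the receptors were those without belinostat replicate 17. The share of all genes called was not counted in the alternatives, so these counts have no background. The cause of these moves was not tested. No replicate block was fitted, since the groups share no replicate number. No paired analysis was possible because the labels number the replicates of each group differently.

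The sign changed 30 times, in no case with a call. With library totals as size factors, GSK-J4 against vehicle became -0.0019 for PLAU and -0.015 for PLAT. Leaving out 1 library gave a range of log2 fold changes across 0 for PLAU (-0.11 to 0.14 for belinostat against vehicle, -0.047 to 0.13 for GSK-J4 against vehicle, -0.13 to 0.066 for belinostat against GSK-J4), for PLAT (-0.080 to 0.066 for GSK-J4 against vehicle), for PLAUR (-0.10 to 0.023 for belinostat against vehicle, -0.12 to 0.071 for GSK-J4 against vehicle, -0.0069 to 0.18 for GSK-J4 against unstimulated, -0.11 to 0.079 for belinostat against GSK-J4), for DPP4 (-0.013 to 0.032 for vehicle against unstimulated) and for FAP (-0.13 to 0.21 for vehicle against unstimulated, -0.043 to 0.30 for GSK-J4 against vehicle). With 4 libraries a group and means of 30 to 188 normalized counts, PRSS35 had the widest standard errors of the members (0.24 to 0.27).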

Other observations

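Ratios of levels per length were taken within each library, after the values had been seen and without a test. The ratio of PLAT to PLAU was 2.36 ± 0.105 in unstimulated cells, 2.47 ± 0.251 in vehicle and 2.43 ± 0.153 under GSK-J4 (mean ± SD, n = 4). Under belinostat it was 1.25 ± 0.296, with libraries from 0.883 to 1.58, all below the lowest library of the other groups (2.17). The ratio of PLAT to its inhibitor gene SERPINE2 was 1.26 ± 0.168 in unstimulated cells, 1.63 ± 0.328 in vehicle, 0.616 ± 0.173 under belinostat and 2.10 ± 0.308 under GSK-J4. Vehicle libraries (1.36 to 2.07) overlapped both unstimulated (1.06 to 1.44) and GSK-J4 (1.82 to 2.53) libraries. Belinostat libraries (0.491 to 0.861) lay below all others. The ratio of HTRA1 to HTRA3 was 26.4 ± 3.62 in unstimulated cells and 29.8 ± 2.61 under belinostat, with libraries from 23.99 to 32.9, and 18.4 ± 2.14 in vehicle and 17.0 ± 1.94 under GSK-J4, with libraries from 14.3 to 19.9. The libraries of the former pair of groups did not overlap those of the latter.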
